A study of Mus musculus with 4 samples.

Results

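The *Slit*, *Robo* and *Srgap* genes were examined in tdTomato-positive cells sorted from the basal telencephalon of mouse embryos at E14.5. The 9 genes were taken by gene name, as *Slit1* to *Slit3*, *Robo1* to *Robo3* and *Srgap1* to *Srgap3*, out of 56883 genes in the table. They were chosen with earlier results of these data known, and all 9 were abundant enough to be tested. Control embryos carried *Sst-Cre/tdTomato* and *Dnmt1* KO embryos carried *Sst-Cre/tdTomato/Dnmt1 loxP2*, so that both genotypes shared the Cre driver and the red reporter and differed in the floxed *Dnmt1* alleles. *Dnmt1* encodes the maintenance DNA methyltransferase, and the comparison asks how its deletion in postmitotic somatostatin (SST) lineage neurons alters the mRNA of guidance genes. There were 2 libraries per genotype, each made from cells of several pooled embryos, so a p-value rests on spread between pools and not between single animals. The limma p-values also draw on the spread of other genes of like abundance. The *Sst-Cre* driver acts in cells that have begun to express *Sst*, and cells were collected as tdTomato-positive.

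Slits are large secreted proteins that bind Robo receptors on the surface of migrating neurons and growing axons. Robo receptors carry no enzyme of their own and pass the signal on through adaptor proteins, among them the srGAPs, which join a membrane-bending F-BAR domain to a domain that switches small GTPases off. In the embryonic forebrain, Slit-Robo signaling is known for repelling axons and for acting on the migration of interneurons that leave the ganglionic eminences.

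Of the 3 ligand genes *Slit2* fell, and among receptors and srGAPs *Robo2*, *Srgap2* and *Srgap3* rose. In the *Dnmt1* KO libraries, *Slit2* was 46.9% lower, *Srgap2* 45.5% higher, *Srgap3* 19.4% higher and *Robo2* 17.0% higher in mean normalized count. Of these 4, *Robo2* no longer passed the test when trends over transcript length and GC content were removed. The other 5 genes, *Slit1*, *Slit3*, *Robo1*, *Robo3* and *Srgap1*, did not pass the test. In bulk samples such as these, fewer cells of a type and less RNA per cell cannot be told apart.

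The bases just before the annotated start are printed for *Slit2*, *Robo2* and *Srgap3*, because DNMT1 acts on CpG dinucleotides and because these 3 called genes start in stretches of very different CpG content. Each run is the 200 bases upstream of the gene's 5′ end in GRCm39, 5′ to 3′ on the strand of the gene, with each CG in capitals. They lie at chr5:48140280-48140479 on the plus strand for *Slit2*, at chr16:75244271-75244470 on the minus strand for *Robo2* and at chr6:112924263-112924462 on the minus strand for *Srgap3*.
Slit2: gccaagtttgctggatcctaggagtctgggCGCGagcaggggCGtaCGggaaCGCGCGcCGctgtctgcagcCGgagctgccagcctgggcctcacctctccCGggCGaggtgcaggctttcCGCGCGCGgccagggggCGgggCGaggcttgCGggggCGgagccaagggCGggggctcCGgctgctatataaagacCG
Robo2: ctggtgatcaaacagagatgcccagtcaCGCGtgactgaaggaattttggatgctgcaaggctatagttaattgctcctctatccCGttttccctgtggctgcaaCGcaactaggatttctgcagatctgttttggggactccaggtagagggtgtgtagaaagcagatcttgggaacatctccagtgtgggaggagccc
Srgap3: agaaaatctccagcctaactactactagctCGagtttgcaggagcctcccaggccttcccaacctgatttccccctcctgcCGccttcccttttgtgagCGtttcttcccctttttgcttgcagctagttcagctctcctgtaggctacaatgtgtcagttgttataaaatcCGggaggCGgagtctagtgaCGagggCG

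The *Slit2* run held 22 CG dinucleotides, the *Srgap3* run 7 and the *Robo2* run 4. Over 12278 such runs before tested protein-coding genes the median was 9. Of these runs 8.21% held at least as many as *Slit2*, 62.9% at least as many as *Srgap3* and 80.6% at least as many as *Robo2*. Among the genes that were not called, *Srgap1* had 24 and *Robo1* had 1, the highest and lowest of the 9. *Slit1* had 8, and *Slit3* and *Robo3* had 4 each. The *Srgap2* run also had 8, but 151 of its 200 bases lie in an exon annotated to another gene, and it is not printed. *Fam72a* starts within 1000 bases of *Srgap2* on the opposite strand, but beyond these 200 bases, so the exon is not one of its own. Its normalized counts were at most 12.5 in any library. *Slit2* has 36 annotated transcripts and *Robo2* 33, and which start was used in these cells was not determined. The counts are a property of the reference sequence only, and no methylation was measured in these libraries.

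A second set of sequences concerns a microRNA that *Slit* genes carry. The hairpins of miR-218 lie inside introns of *Slit2* (*Mir218-1*, intron 16 of 38, chr5:48381284-48381393, GRCm39) and of *Slit3* (*Mir218-2*, intron 14 of 35, chr11:35507643-35507752), on the strand of the host. The mature sequence is shown as RefSeq gives it, with the seed, bases 2 to 8, in capitals. Beneath it stand the 22-base windows of 3′ UTRs with the complement of the seed, AAGCACA, in capitals, for *Robo1* (chr16:72842222-72842243, plus strand), for *Robo2* (chr16:73692246-73692267, minus strand) and for *Slit2* itself (chr5:48461871-48461892, plus strand).
mmu-miR-218-5p: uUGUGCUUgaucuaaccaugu
Robo1 site: ttttttggttttaaAAGCACAa
Robo2 site: ttttatttggtgatAAGCACAa
Slit2 site: gccaatactagcagAAGCACAt

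The seed complement AAGCACA, searched on the transcript strand, was found in the 3′ UTRs of 6 of the 9 genes. *Slit2* and *Robo2* had 2 matches each, and *Robo1*, *Robo3*, *Srgap2* and *Srgap3* had 1 each. *Slit1*, *Slit3* and *Srgap1* had 0 in the annotated 3′ UTR used. For comparison, 18.4% of 12081 tested 3′ UTRs held a match, and 34.1% of the 4622 that were 2000 bases or longer did, as were those of all these genes except *Slit1* and *Robo3*. Both hairpins were listed at 0 in all 4 libraries, and mature miR-218 was not measured by these libraries.

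Total RNA was sequenced, and the deposited values are normalized counts, that is, the whole reads of a gene divided by 1 size factor for the library. Recovered reads ranged from 6970247 to 8376711 per library. *Dnmt1* itself had normalized counts of 2238 and 2341 in the control and 2164 and 2210 in the *Dnmt1* KO libraries. The knockout values were the lower ones, but the log2 fold change was -0.07 ± 0.05 (SE, limma, adjusted p = 0.461), which did not pass the test. The count covers the whole gene, also exons outside the floxed part, and is therefore a weak check of the labels. *Sst* was present in every library, at 5580 and 5963 in the control and 8303 and 7825 in the knockout.

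Marker genes of cells other than SST interneurons were detected in all libraries, and most of them differed between the genotypes. Of 15 interneuron genes 14 were called higher, with summed normalized counts of 27425 to 27584 in the control and 42044 to 42595 in the *Dnmt1* KO libraries. Of 12 radial glia and cycling genes 9 were lower and *Sox2* was higher, with sums of 14985 to 15076 against 9460 to 9683. Of 10 excitatory lineage genes 8 were lower (sums of 3103 to 3139 against 1536 to 1679). Among 11 tested striatal genes 6 were lower and *Tac1* higher (3612 to 3762 against 2592 to 2675), and among 4 tested pallidal cholinergic genes 2 were lower (1453 to 1558 against 951 to 954), with *Chat* at most 1.97 in any library. All 11 tested vascular and meningeal genes were lower (853 to 922 against 374 to 405), with *Dcn* and *Lum* at most 9.19. Of 2 tested microglial genes *Csf1r* was lower (list sums of 66.2 to 91.9 against 23.7 to 32.8), and *P2ry12*, *Aif1*, *Trem2* and *C1qa* were at most 9.19. All 8 tested blood genes were lower (2433 to 2610 against 587 to 592). The part of these shifts in the results on *Slit*, *Robo* and *Srgap* genes was not tested.

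Genes were tested with limma on log2(normalized count + 1) over the 14323 genes whose normalized counts averaged 10 or more, and a gene was called at a Benjamini-Hochberg adjusted p below 0.05. Of the 9 genes 4 were called, beside 17.3% of all genes tested. There were 3 called higher, beside 8.3% of all genes, and 1 called lower, beside 8.99%. Abundant genes were called more often, at 24.8% of those with a mean of at least 200, and the 4 called genes were among the 7 of the 9 that reached this level. The values of the genotypes did not overlap for 8 of the 9 genes, beside 57.4% of all genes. The median log2 fold change of the 9 was -0.06, beside -0.0033 over all genes tested.

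**Figure D1:**
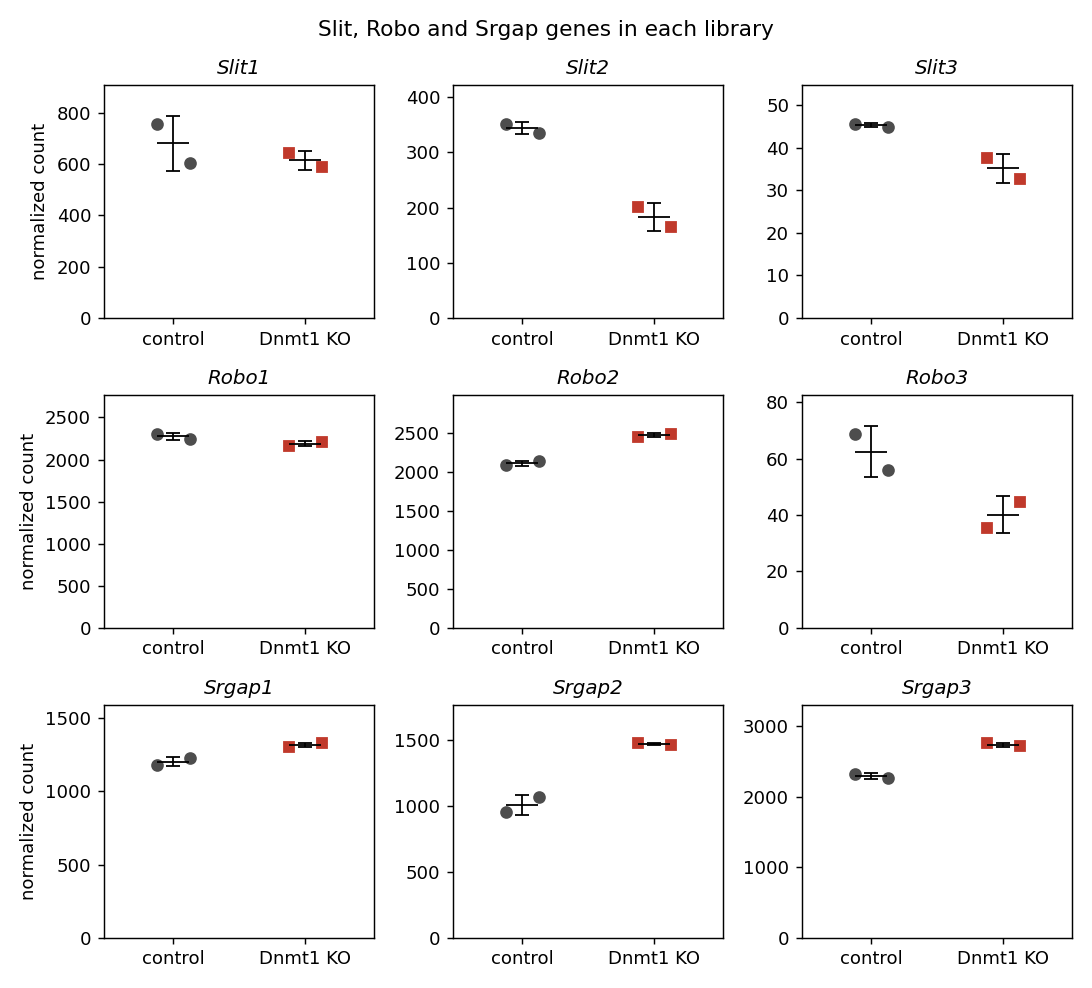
Normalized counts (vertical axes, from 0, a different range in each panel) of the 9 genes in the 2 control (grey circles) and the 2 *Dnmt1* KO libraries (red squares), with the mean and SD in black. *Slit2* sits at 336 to 352 in the control and 165 to 200 in the knockout, *Srgap2* at 956 to 1064 against 1464 to 1474, and only the *Slit1* values overlap.

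Among the ligands, *Slit2* (ENSMUSG00000031558, chr5:48140480-48465075, plus strand) encodes a secreted repellent of axons and migrating neurons. Its normalized counts were 352 and 336 in the control and 200 and 165 in the *Dnmt1* KO libraries. Both knockout values lay far below both control values. The means were 344 ± 11.2 and 183 ± 24.9 (SD, n = 2 each), and the log2 fold change was -0.92 ± 0.12 (SE), with a 95% interval of -1.18 to -0.65 (limma, adjusted p = 0.00012). With any 1 library left out the log2 fold change stayed between -1.05 and -0.78, with a limma adjusted p of at most 0.00362. The gene rested on 151 reads in the shallowest library and 393 in the deepest.

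*Slit1* (ENSMUSG00000025020, chr19:41588676-41732268, minus strand) was the most abundant ligand in these cells. It had normalized counts of 756 and 603 in the control and 641 and 589 in the knockout. The groups overlapped, since one knockout value lay between the control values. A log2 fold change of -0.14 ± 0.10 (SE) resulted, with a 95% interval of -0.35 to 0.08 (limma, adjusted p = 0.399). The sign of this value rested on control library 1, and without it the difference was 0.03.

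*Slit3* (ENSMUSG00000056427, chr11:35011789-35602786, plus strand), a ligand also expressed in vessels and muscle, was scarce. Its normalized counts were 45.6 and 44.9 in the control and 37.5 and 32.8 in the knockout. The knockout values were the lower ones and did not overlap the control, but only 30 to 51 reads per library stood behind them. The log2 fold change was -0.36 ± 0.27 (SE), with a 95% interval of -0.94 to 0.22 (limma, adjusted p = 0.416), so a difference of the size seen in *Slit2* was just inside what this depth allows.

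Among the receptors, *Robo2* (ENSMUSG00000052516, chr16:73688727-75244270, minus strand) was the only called one of the 3. Normalized counts were 2089 and 2134 in the control and 2450 and 2491 in the *Dnmt1* KO libraries. The distance between the genotypes was far larger than that between the libraries of either one. The means were 2111 ± 31.9 and 2471 ± 29.0 (SD, n = 2 each), and the log2 fold change was 0.23 ± 0.05 (SE), with a 95% interval of 0.11 to 0.34 (limma, adjusted p = 0.00758). The call was lost when trends over length and GC content were removed together. *Robo2* spans 1556 kb, the longest of the 9, and its transcript has the lowest GC content, 42.8%. With the trends over transcript length and GC content subtracted within each library its log2 fold change was 0.13 (limma, adjusted p = 0.0942). With genomic span in place of transcript length it was 0.02 (adjusted p = 0.873). Length and GC content were not removed separately.

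*Robo1* (ENSMUSG00000022883, chr16:72105194-72844378, plus strand), the close relative of *Robo2* on the same chromosome, was not called. It had normalized counts of 2308 and 2245 in the control and 2166 and 2213 in the knockout. The knockout libraries lay slightly below the control libraries without overlap. The genotypes differed by -0.06 ± 0.05 (SE) on the log2 scale, with a 95% interval of -0.17 to 0.06 (limma, adjusted p = 0.531), so at more than 2000 reads per library a change beyond these bounds was not seen.

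*Robo3* (ENSMUSG00000032128, chr9:37326965-37344737, minus strand), a divergent receptor known for axon crossing at the midline of the hindbrain and spinal cord, was near the lower end of detection. Its normalized counts were 68.9 and 56.1 in the control and 35.5 and 44.8 in the knockout. The knockout values were lower without overlap, on 36 to 77 reads per library. The log2 fold change was -0.63 ± 0.26 (SE, limma, adjusted p = 0.109), with a 95% interval of -1.17 to -0.08 before adjustment.

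The srGAPs act inside the cell. *Srgap2* (ENSMUSG00000026425, chr1:131212989-131455275, minus strand), which shapes filopodia and neurites and acts on the migration of cortical neurons, had the largest rise of the 9. Normalized counts were 956 and 1064 in the control and 1474 and 1464 in the *Dnmt1* KO libraries. The knockout libraries were close to each other and well above the control. The means were 1010 ± 76.4 and 1469 ± 6.76 (SD, n = 2 each), and the log2 fold change was 0.54 ± 0.07 (SE), with a 95% interval of 0.40 to 0.69 (limma, adjusted p = 6.47e-05). Leaving out any 1 library gave 0.47 to 0.62, with a limma adjusted p of at most 0.00117, and removing the length and GC trend gave 0.57.

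*Srgap3* (ENSMUSG00000030257, chr6:112694932-112924262, minus strand), also called WRP for its binding to the WAVE1 actin regulator, was the most abundant srGAP. Its normalized counts were 2321 and 2260 in the control and 2757 and 2714 in the knockout. Both knockout libraries were above both control libraries. They differed by 0.26 ± 0.05 (SE) on the log2 scale, with a 95% interval of 0.15 to 0.37 (limma, adjusted p = 0.0030). It was 0.29 with the length and GC trend removed, and its adjusted p was at most 0.0224 with any 1 library left out.

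*Srgap1* (ENSMUSG00000020121, chr10:121616814-121883220, minus strand), the member first tied to Robo receptors through Cdc42, had normalized counts of 1181 and 1226 in the control and 1306 and 1328 in the knockout. The values did not overlap. The log2 fold change was 0.13 ± 0.06 (SE), with a 95% interval of -0.0048 to 0.26 (limma, adjusted p = 0.182), in the same direction as its relatives but short of the threshold.

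**Figure D2:**
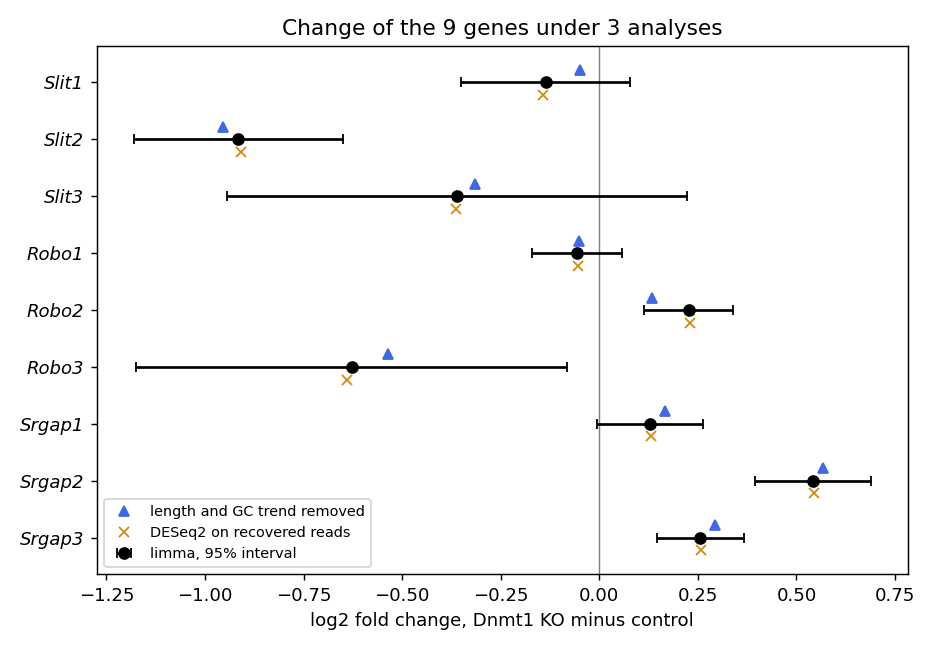
Log2 fold change of the 9 genes, *Dnmt1* KO minus control (horizontal axis), from limma with its 95% interval (black), from limma with the length and GC trend subtracted (blue triangles) and from DESeq2 on recovered reads (orange crosses). *Robo2* moves from 0.23 to 0.13 when the trend is removed, while *Slit2* moves from -0.92 to -0.95 and *Srgap2* from 0.54 to 0.57.

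Count tests made the 4 calls as well. DESeq2 on the recovered reads called the same 4 genes and no other of the 9, beside 9.2% of all genes, with adjusted p of 4.23e-05 for *Slit2*, 3.47e-07 for *Srgap2*, 0.00295 for *Srgap3* and 0.0155 for *Robo2*. The edgeR quasi-likelihood test and limma-voom also called these 4. Removing the length and GC trend left 3 calls, without *Robo2*, beside 18.2% of all genes. Limma without the trend of variance over expression called 0 genes of the whole table, with 3339 at an unadjusted p below 0.05, and the adjusted p of *Slit2* was then 0.0724 and that of *Srgap2* 0.094.

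**Figure D3:**
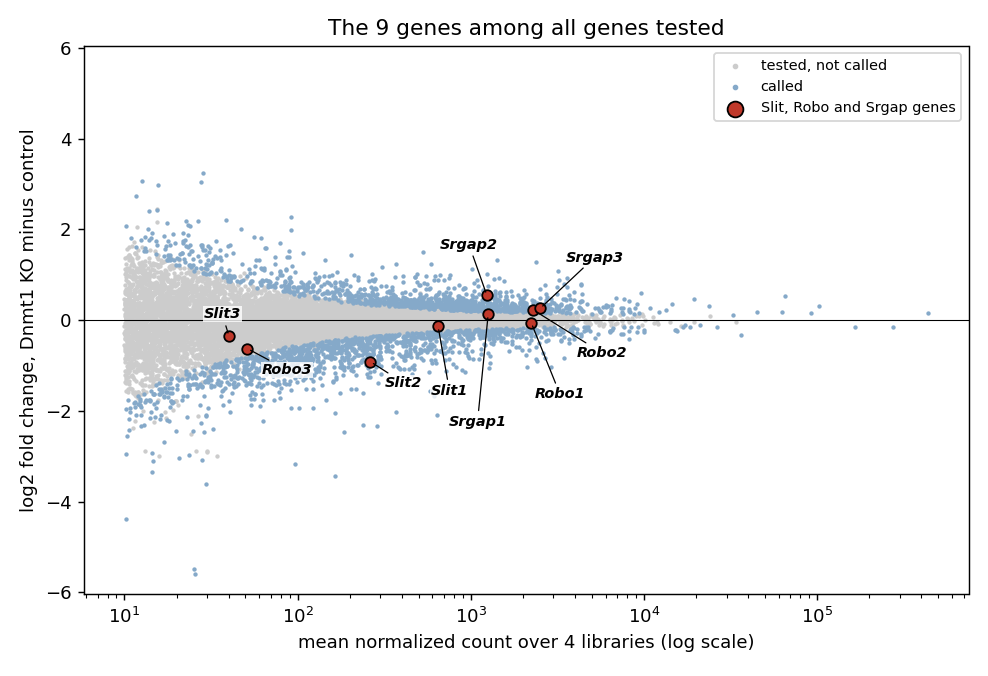
Log2 fold change, *Dnmt1* KO minus control (vertical axis), against the mean normalized count over the 4 libraries (horizontal axis, log scale) for 14323 genes, with the 2476 called genes in blue and the 9 *Slit*, *Robo* and *Srgap* genes in red. *Slit2* at -0.92 is the lowest of the 9 and *Srgap2* at 0.54 the highest.

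Levels of different genes were compared per kilobase of transcript, as normalized count divided by the length of the annotated transcript with the longest complete coding sequence. In the control the order was *Srgap3* (256 ± 4.83), *Robo1* (247 ± 4.83), *Robo2* (234 ± 3.53), *Srgap1* (153 ± 4.03), *Slit1* (130 ± 20.7), *Srgap2* (125 ± 9.47), *Slit2* (34.3 ± 1.1), *Robo3* (12.5 ± 1.80) and *Slit3* (5.06 ± 0.06), each a mean ± SD of 2 libraries. Only *Slit1* (115 to 145) and *Srgap2* (119 to 132) overlapped among neighbours in this order. In the *Dnmt1* KO libraries *Srgap3* (306 ± 3.39) was followed by *Robo2* (274 ± 3.21), *Robo1* (238 ± 3.56), *Srgap2* (182 ± 0.84), *Srgap1* (167 ± 1.94) and *Slit1* (118 ± 7.06). At the lower end *Slit2* (18.2 ± 2.49), *Robo3* (8.03 ± 1.31) and *Slit3* (3.93 ± 0.37) followed in the same order as in the control, and no neighbours overlapped. These orders hold for the transcripts used. Per kilobase of the longest annotated transcript, the control means of *Slit1* and *Srgap2* were 113 and 111, and that of *Srgap1* stayed at 153. The knockout order, with *Srgap2* close above *Srgap1*, was not computed with that length.

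Summed per kilobase, the cells held far more receptor and srGAP mRNA than ligand mRNA. The 3 receptors together came to 494 ± 3.10 in the control and 519 ± 8.09 in the knockout, the 3 srGAPs to 535 ± 8.68 and 656 ± 2.29, and the 3 ligands to 169 ± 21.8 and 140 ± 9.92 (mean ± SD, n = 2 each). Shares within each family restate the changes of the single genes. They were not tested, and the length and GC trend was not removed from them. *Slit2* made up 19.0% and 21.8% of the ligand sum in the control and 13.6% and 12.4% in the knockout. *Robo2* made up 46.7% and 48.1% of the receptor sum in the control and 52.9% and 52.6% in the knockout, and *Srgap2* 22.4% and 24.4% of the srGAP sum against 27.8% in both knockout libraries.

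Before 1 is added to each count, ratios of 2 genes within a library do not depend on the size factor. The *Slit1* to *Slit2* ratio of normalized counts + 1 was 2.15 and 1.79 in the control and 3.19 and 3.55 in the knockout, a difference of 0.78 on the log2 scale. *Robo1* to *Robo2* was 1.10 and 1.05 in the control and 0.884 and 0.888 in the knockout, a log2 difference of -0.28. This difference was -0.19 with the length and GC trend removed and -0.11 with genomic span in place of transcript length, both computed after the data were seen. *Srgap1* to *Srgap2* was 1.24 and 1.15 in the control and 0.886 and 0.907 in the knockout, a log2 difference of -0.41. In normalized counts as deposited, *Robo1* exceeded *Robo2* and *Srgap1* exceeded *Srgap2* in both control libraries, and both orders were reversed in both knockout libraries. *Slit1* exceeded *Slit2* in every library. Each of the 9 pairs within a family had p = 0.333 (two-sided exact permutation test), the smallest p that 2 libraries against 2 allow. At a pseudocount of 10, *Slit1* to *Slit3* overlapped between the genotypes (exact p = 0.667).

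**Figure D4:**
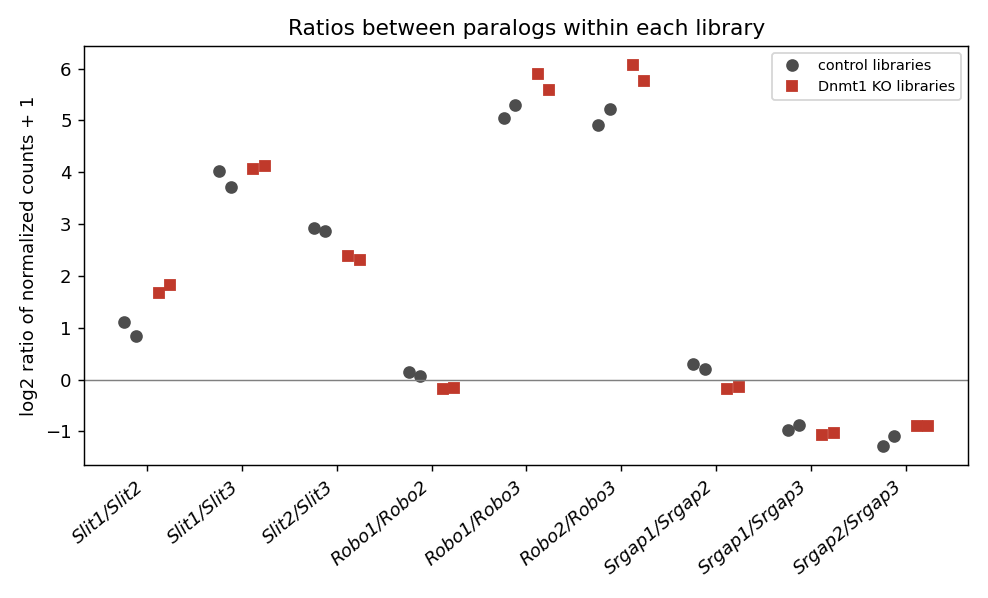
Log2 ratio of the normalized counts + 1 of 2 genes of a family (vertical axis) for each of the 9 pairs, in the 2 control (grey circles) and the 2 *Dnmt1* KO libraries (red squares). The ratios of *Robo1* to *Robo2* and of *Srgap1* to *Srgap2* lie above 0 in both control libraries and below 0 in both knockout libraries.

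Because interneuron genes were higher in the knockout libraries, the 9 genes were also set beside the sum of the 15 interneuron markers of the same library, a description added after the data were seen. That sum was 53.9% higher in the knockout, so that any gene that rose by less is lower on this scale by construction, and no direction is read from it. Per 1000 of the sum, *Slit2* had 12.8 and 12.2 in the control and 4.76 and 3.87 in the knockout. *Srgap2*, the 1 gene of the 9 whose groups overlapped, had 34.8 and 38.6 against 35.0 and 34.4. The other 8 were lower in both knockout libraries, *Robo2* with 76.2 and 77.4 against 58.3 and 58.5.

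Reads of a gene can also lie in transcripts annotated inside it, and whether reads were assigned by strand is not given in the sources used here. *Srgap2* holds *Gm37954*, a provisional gene model on the same strand, at 15.2 and 20.4 in the control and 52.3 and 41.5 in the knockout. It was higher in both knockout libraries, with a log2 fold change of 1.35 ± 0.33 (SE, limma, adjusted p = 0.0103). Its adjusted p was 0.0663 without control library 1 and 0.0655 without *Dnmt1* KO library 1. *Gm29488*, also inside *Srgap2*, differed by 0.18 (adjusted p = 0.832, limma). Inside *Robo2*, on its strand, *Gm49660*, *Gm49659* and *Gm49658* had log2 fold changes of 1.02, 0.54 and 0.32 (limma, adjusted p = 0.139, 0.490 and 0.389). *Gm56620* inside *Robo1* and *Gm48804* inside *Srgap1* were not called either (adjusted p = 0.669 and 0.580, limma). The highest mean normalized count of these overlapping genes was 58.4 (*Gm49658*).

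Beyond the 9 genes the families hold *Robo4*, a receptor of endothelial cells that lies next to *Robo3* on the opposite strand, and *Arhgap4*, an srGAP relative of blood cells. *Robo4* had normalized counts of 35.8 and 15.3 in the control and 7.89 and 6.56 in the knockout. All values were low, and the control libraries differed widely from each other. The log2 fold change was -1.58 ± 0.51 (SE, limma, adjusted p = 0.0439), with an adjusted p of 0.361 without control library 1, where the value was -0.99, and of 0.0563 without *Dnmt1* KO library 2. *Arhgap4* had 18.8 and 20.4 against 6.90 and 17.5 (log2 fold change -0.77, limma, adjusted p = 0.322).

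A list of 40 pathway partners, these 2 included, covered co-receptors and other guidance molecules at the surface, adaptors and GTPases inside the cell, and proteins of receptor trafficking and cleavage. Of the 39 tested 2 were called higher, 4 lower and 33 were not called, with a median log2 fold change of -0.01, so that 6 of 39 were called, beside 17.3% of all genes. At the cell surface 2 of 12 were higher and 1 was lower. *Ntn1*, the guidance cue netrin-1, had 362 and 326 in the control and 424 and 445 in the knockout, with a log2 fold change of 0.34 ± 0.10 (SE, limma, adjusted p = 0.0286). *Sdc3*, a heparan sulfate proteoglycan of a kind that helps Slit bind Robo, differed by 0.22 ± 0.05 (SE, limma, adjusted p = 0.00883). *Nell2*, a secreted ligand of Robo3, fell by 0.24 on the log2 scale (limma, adjusted p = 0.0222).

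Inside the cell 2 of 21 were lower and 0 higher. *Ctnnb1*, β-catenin, which links cadherins to the cytoskeleton and also serves Wnt signaling, had 4408 and 4222 in the control and 3457 and 3438 in the knockout (log2 fold change -0.32 ± 0.05, limma, adjusted p = 0.000221). *Cap2*, an actin-regulating cyclase-associated protein, had 60.0 and 67.4 against 32.6 and 38.2 (log2 fold change -0.83 ± 0.25, limma, adjusted p = 0.035). The small GTPases *Rac1*, *Cdc42* and *Rhoa*, the kinases *Abl1* and *Abl2* and the actin regulator *Enah* were not called. The 4 tested genes of trafficking and cleavage, *Usp33*, *Ndfip1*, *Ndfip2* and *Adam10*, were not called, with log2 fold changes from -0.03 to 0.15. *Prrg4* was too low to be tested. Of the 6 calls only *Ctnnb1* remained with every library left out in turn. *Cap2* had an adjusted p of 0.102 without control library 1, 0.202 without control library 2 and 0.11 without *Dnmt1* KO library 1. *Nell2* had 0.103 without control library 1 and 0.0715 and 0.0769 without *Dnmt1* KO library 1 and 2. *Ntn1* had 0.172 without control library 2 and 0.121 without *Dnmt1* KO library 2, and *Sdc3* 0.0827 without *Dnmt1* KO library 2. With the length and GC trend removed, *Nell2* (-0.14, limma, adjusted p = 0.164) and *Robo4* (adjusted p = 0.0553) were not called either, while *Nck1* (0.0206) and *Pak3* (0.0346) were called lower and *Abl2* (0.0191) and *Pak1* (0.0151) higher.

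**Figure D5:**
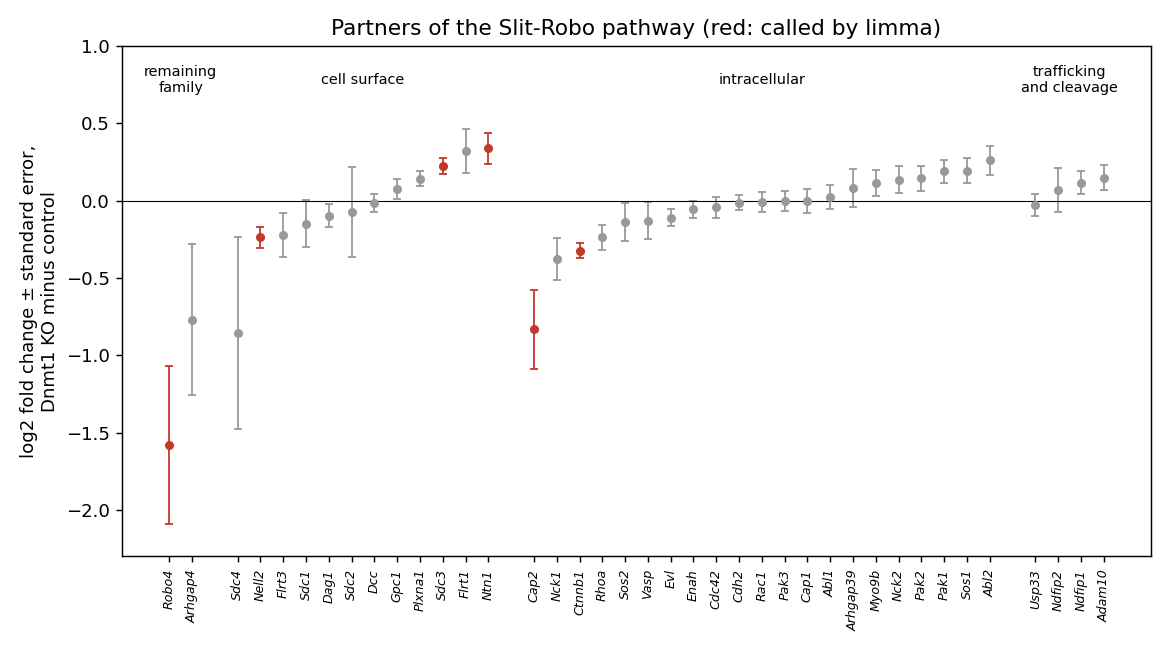
Log2 fold change, *Dnmt1* KO minus control, with its standard error (vertical axis) for the 39 tested pathway partners in 4 lists, ordered by value within each list and drawn in red where limma called the gene. The 6 called genes lie at -1.58 (*Robo4*), -0.83 (*Cap2*), -0.32 (*Ctnnb1*), -0.24 (*Nell2*), 0.22 (*Sdc3*) and 0.34 (*Ntn1*), and most of the others lie near 0.

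The genes whose pattern over the 4 libraries was most like that of *Slit2*, *Srgap2* and *Robo2* were sought among 8417 genes that averaged 100 or more, by the root mean squared difference of centred log2 values. For *Slit2* these were *Mrpl40*, *Gm5620* and *H2ac22* (differences of 0.04, 0.05 and 0.05). *Srgap2* was matched most closely by *Pcdh18*, *E230020D15Rik* and *Sox1ot*, each at 0.02. For *Robo2* they were *Ppp1r9b*, *Unc45a* and *Kdm6b*, with *Ppp1r9b* at 2476 and 2547 in the control and 2905 and 2972 in the knockout. With 4 libraries, many genes share such a pattern.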

How the data were processed

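Total RNA of tdTomato-positive cells from the E14.5 basal telencephalon was sequenced for control and *Dnmt1* KO, with 2 libraries each, grouped by the sample labels. Reads were aligned by the authors with STAR (GRCm39) and counted per gene with Salmon, and the deposited signal is that count divided by 1 DESeq2 size factor per library. The submitters' notes give R 4.3.2 and DESeq2 1.32.0. All 89965 values above 0 (100%) are whole reads divided by that factor, to within 0.0001 of a read, with factors of 0.915 to 1.12. Recovered reads were 6970247 to 8376711 per library, and counting error alone gave the scarcest gene, *Slit3*, a coefficient of variation of up to 18.3%.

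Normalized counts + 1 were log2 transformed and tested with limma 3.58.1 in R 4.3.3 (eBayes with a variance trend, genotype as the only term, genes averaging 10 or more), adjusted by Benjamini-Hochberg over 14323 genes. Gene models came from the GENCODE annotation of GRCm39, which held 14285 of them. Alternatives used pseudocounts of 0.5 and 10, minimum means of 1 and 50, TMM or quantile scaling, no variance trend, edgeR 4.0.16, DESeq2 1.42.0 and limma-voom on recovered reads, spline removal (5 degrees of freedom) of length and GC trends, a replicate block, and each library left out, where limma lets the single remaining library vary like the others. Fits were tested on simulated data. Python 3.11.15, numpy 2.4.6, pandas 2.3.3, scipy 1.17.1 and matplotlib 3.10.9 were used.

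The 9 genes, the partner and marker lists, the tests and the alternatives were chosen with earlier results of these data known. Named were the 9 genes, *Robo4*, *Arhgap4*, *Dnmt1*, up to 4 called partners per list with the largest change, tested genes that overlap the 9, the miR-218 introns and the 3 closest patterns. Uncalled partners, *Fam72a* and single markers were named after their values were seen. The sample labels do not say whether the replicate numbers pair the libraries.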

Additional observations from a re-analysis of the deposited data

How the results depend on the processing

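Each library rests on pooled embryos and each genotype on 2 libraries, so small changes of scarce genes such as *Slit3* and *Robo3* were out of reach. Over 19 alternatives *Slit2*, *Srgap2* and *Srgap3* lost their calls only in limma without the variance trend, which called 0 of the 9 genes in either direction, 0 genes of the table and 0 partners. *Slit2* ranged from -1.05 to -0.78, *Srgap2* from 0.47 to 0.62 and *Srgap3* from 0.21 to 0.32 in log2 fold change. *Robo2* was not called in 5, among them the length and GC trend removed (0.13, adjusted p = 0.0942), the same with the longest transcript (0.14, limma, adjusted p = 0.0893) and with genomic span (0.02, adjusted p = 0.873), both chosen after seeing the data. *Slit1* turned from -0.14 to 0.026 without control replicate 1 and ranged from -0.30 to 0.03 with 1 library left out. In all 2476 genes were called, 1317 with DESeq2 and 1525 to 2205 with 1 library left out (1648 without control replicate 1, 1525 without control replicate 2). With genomic span removed 1672 were higher and 1138 lower, against 1189 and 1287. Partners called higher, 2 in the main analysis, were 4 at a minimum mean of 50, 1 with DESeq2, 4 with the length and GC trend removed, 5 with the longest transcript, 7 with genomic span and 0 to 4 with 1 library left out. Partners called lower, 4 in the main analysis, were 1 with DESeq2 and 1 to 3 with 1 library left out. The sample labels do not say whether the replicate numbers pair the libraries. Deviations of same-numbered libraries had r = -0.08 over 14323 genes. With 2 libraries per genotype, crossed numbers give 0.08 by construction, so whether libraries shared a batch cannot be judged from this value. With the replicate number as a block, the same 3 higher and 1 lower of the 9 genes were called, 2957 genes in all and 4 partners higher, and with the block and the length and GC trend removed 5 partners were higher and *Robo2* had 0.13 (limma, adjusted p = 0.105). The causes of these differences were not tested.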
